A study of Mus musculus with 31 samples.

Results

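The comparison was of retinas at postnatal day 14 (P14) from mice labelled Rorb-/- with retinas of the same age from mice labelled +/+. It rests on 4 mice a group, 8 of the 31 arrays of the series, and each sample was total RNA of both retinas of 1 mouse on an Affymetrix mouse expression array. Neither group carried the transgene CrxpNrl, which other groups of the series carry; strain, sex and the deleted part of Rorb are not given in the sources used here. Members were chosen by these labels alone, and all 18193 genes with a probe set of their own were compared. The other samples served as comparison where named: the same genotypes at P28 (4 mice each), and +/+;CrxpNrl and Rorb-/-;CrxpNrl at P14 (4 mice each), in which, per the name, the rod factor gene Nrl is driven by the Crx promoter, active in photoreceptors.

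Rorb encodes a nuclear receptor that binds DNA at AGGTCA half-sites and is active in photoreceptor precursors and in inhibitory interneurons of the inner retina. Photoreceptor precursors become rods when the leucine zipper factor NRL is made, and otherwise take on the short-wave cone programme. Amacrine and horizontal cells, the inhibitory interneurons, arise from precursors that express other factors, PTF1A and the AP-2 family among them. At P14 a mouse retina has its final set of neurons and its eyes are about to open or have just opened, while photoreceptor outer segments are still growing.

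Values are log2 signals, so that 1 unit is a 2-fold step. A difference is the mean of Rorb-/- minus the mean of +/+, given ± SE from a limma fit over all arrays, and "rose" and "fell" are used at Benjamini-Hochberg adjusted p under 0.05 over all genes. The labels number biological replicates and do not say whether the mice came from separate litters. The SE pools the spread within all 8 groups of the series, so it can be larger or smaller than the spread of the 2 compared groups gives. The number of arrays limits the precision. Array medians lay between 5.84 and 5.91, minima between 2.00 and 2.33 and maxima between 14.1 and 14.3 and values near these ends are limited by the range of the array. Any 2 of the 8 arrays correlated at 0.971 to 0.997. Whole retinas were measured: fewer cells of a type and less RNA per cell cannot be told apart.

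The targeted gene was lower in all 4 Rorb-/- arrays. Rorb lay at 10.85, 11.03, 11.10 and 10.88 in +/+ and at 9.88, 9.86, 9.95 and 9.58 in Rorb-/-, a difference of -1.15 ± 0.19. All 3 Rorb probe sets were lower, by 1.15 to 1.78, but a probe set outside the deleted part checks nothing. Markers of retina were present in both groups: the photoreceptor genes Crx (12.25 ± 0.07 in +/+ and 12.05 ± 0.11 in Rorb-/-, mean ± SD) and Sag, rod arrestin, and the Müller glia genes Glul (12.79 ± 0.04 and 12.70 ± 0.22) and Rlbp1 were all far above the array medians.

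Loss of Rorb came with a broad change. Of the 18193 genes, 2908 (16%) rose and 2537 (13.9%) fell, 29.9% in all. These shares stand beside the count of every gene list below. At a fold change of at least 2 the counts were 485 higher (2.67%) and 467 lower (2.57%), 952 genes or 5.23%. The 4 samples of each group did not overlap in 933 of these 952, against 29.6% of all genes. Falls were the larger: 114 genes fell and 79 rose at least 4-fold, and 14 fell and 2 rose at least 16-fold. The median SD among the 952 genes was 0.213 in Rorb-/- and 0.171 in +/+, and 25 of them had an SD above 1 in Rorb-/- against 4 in +/+. The median difference over all genes was -0.007.

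Rods and cones carry out phototransduction with partner proteins from different genes, so the 2 programmes can be compared step by step. Of the rod partners, 10 were measured and 9 fell, with a median difference of -3.22. Of the cone partners, 10 were measured and 9 rose, with a median of 2.01. The samples of the 2 groups did not overlap for 10 of 10 rod genes, all lower in Rorb-/- (14.1% of all genes), and for 8 of 10 cone genes, all higher (15.5%).

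Transducin couples the visual pigment to the phosphodiesterase. Its rod alpha subunit gene Gnat1 lay at 13.79, 13.83, 13.87 and 13.86 in the 4 +/+ mice and at 8.10, 8.83, 11.08 and 11.85 in the 4 Rorb-/- mice. The +/+ values sit near the top of the array's range and span 0.0758, whereas the Rorb-/- values span 3.76. Gnat1 thus fell by 3.87 ± 0.51, 14.7-fold, and its cone partner Gnat2 rose by 2.35 ± 0.19, 5.1-fold. Gnat2 lay at 10.73, 10.59, 10.65 and 10.69 in +/+ and at 13.17, 12.96, 12.88 and 13.04 in Rorb-/-, with no spread of the kind seen in Gnat1. The beta subunits followed, Gnb1 of rods with -1.84 ± 0.35 and Gnb3 of cones with 1.83 ± 0.08. Among the gamma subunits the cone gene Gngt2 rose by 2.27 ± 0.21, while the rod gene Gngt1 differed by -0.57 ± 0.26 (adjusted p = 0.102, and 8.49e-05 with the replicate number as a block) with no overlap between the groups. Gngt1 passed also with array weights (0.0177), with only the P14 groups in the fit (6.09e-06), with the mean of all probe sets (-0.83, adjusted p = 0.0167) and without probe sets of shared-sequence suffixes (-1.52, adjusted p = 0.00119).

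The phosphodiesterase, which lowers cGMP in light, showed the largest of these falls. Pde6b, its rod beta subunit gene, lay at 12.67, 12.74, 12.77 and 13.22 in +/+ and at 6.95, 6.89, 8.69 and 9.86 in Rorb-/-, and fell by 4.75 ± 0.54, 26.9-fold. Pde6a, the rod alpha subunit gene, fell by 2.99 ± 0.40 and Pde6g, the rod inhibitory subunit gene, fell by 0.92 ± 0.28 from a level near the array maximum. The cone catalytic gene Pde6c lay at 10.11, 10.11, 9.60 and 10.05 and 12.24, 12.57, 12.09 and 11.74 and rose by 2.19 ± 0.27, and the cone inhibitory gene Pde6h rose by 1.51 ± 0.49 (adjusted p = 0.0182, and 0.0591 without Rorb-/- replicate 3).

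The channel that closes in light, and the exchanger that returns calcium, changed the same way. Cnga1, the rod channel's alpha subunit gene, lay at 11.98, 11.95, 12.002 and 11.91 in +/+ and at 6.70, 6.84, 8.69 and 8.88 in Rorb-/- and fell by 4.18 ± 0.44. Cngb1 fell by 3.45 ± 0.33 and the rod exchanger gene Slc24a1 fell by 4.05 ± 0.37. The cone channel's beta subunit gene Cngb3 lay at 8.05, 7.98, 7.67 and 7.84 in +/+ and at 10.98, 11.18, 11.05 and 10.77 in Rorb-/-, and rose by 3.11 ± 0.22, the largest rise of the cone partners. The cone exchanger gene Slc24a2 rose by 0.69 ± 0.23, but Rorb-/- replicate 3 (6.95) lay below all 4 +/+ mice. This last call was lost without +/+ replicate 3 (adjusted p = 0.0636) and without Rorb-/- replicate 1 (0.0572), 2 (0.0651) or 4 (0.151, with a difference of 0.43), as well as with the mean of all probe sets (0.39, adjusted p = 0.101) and with only the P14 groups in the fit (0.133).

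The 2 cone pigments did not move together. Opn1sw, the short-wave opsin gene, lay at 11.42, 11.67, 11.64 and 11.76 in +/+ and at 13.66, 13.48, 13.13 and 13.52 in Rorb-/- and rose by 1.83 ± 0.56, with the Rorb-/- mice near the array maximum. Opn1mw, the middle-wave opsin gene, lay at 11.19, 10.90, 11.15 and 11.08 and 10.90, 10.91, 10.41 and 11.40, overlapping, with a difference of -0.17 ± 0.25 (adjusted p = 0.674). The 2 differences were not tested against each other. Arrestin, which ends the pigment's activity, went the way of the other partners: Arr3 of cones rose by 2.51 ± 0.43 and Sag of rods fell by 0.45 ± 0.17 from 14.06, at the array maximum. The call of Sag was lost when any 1 of the 8 mice was left out (adjusted p = 0.0585 to 0.095), with quantile normalization (0.0853) and with no trend in the variance (0.051).

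**Figure D1:**
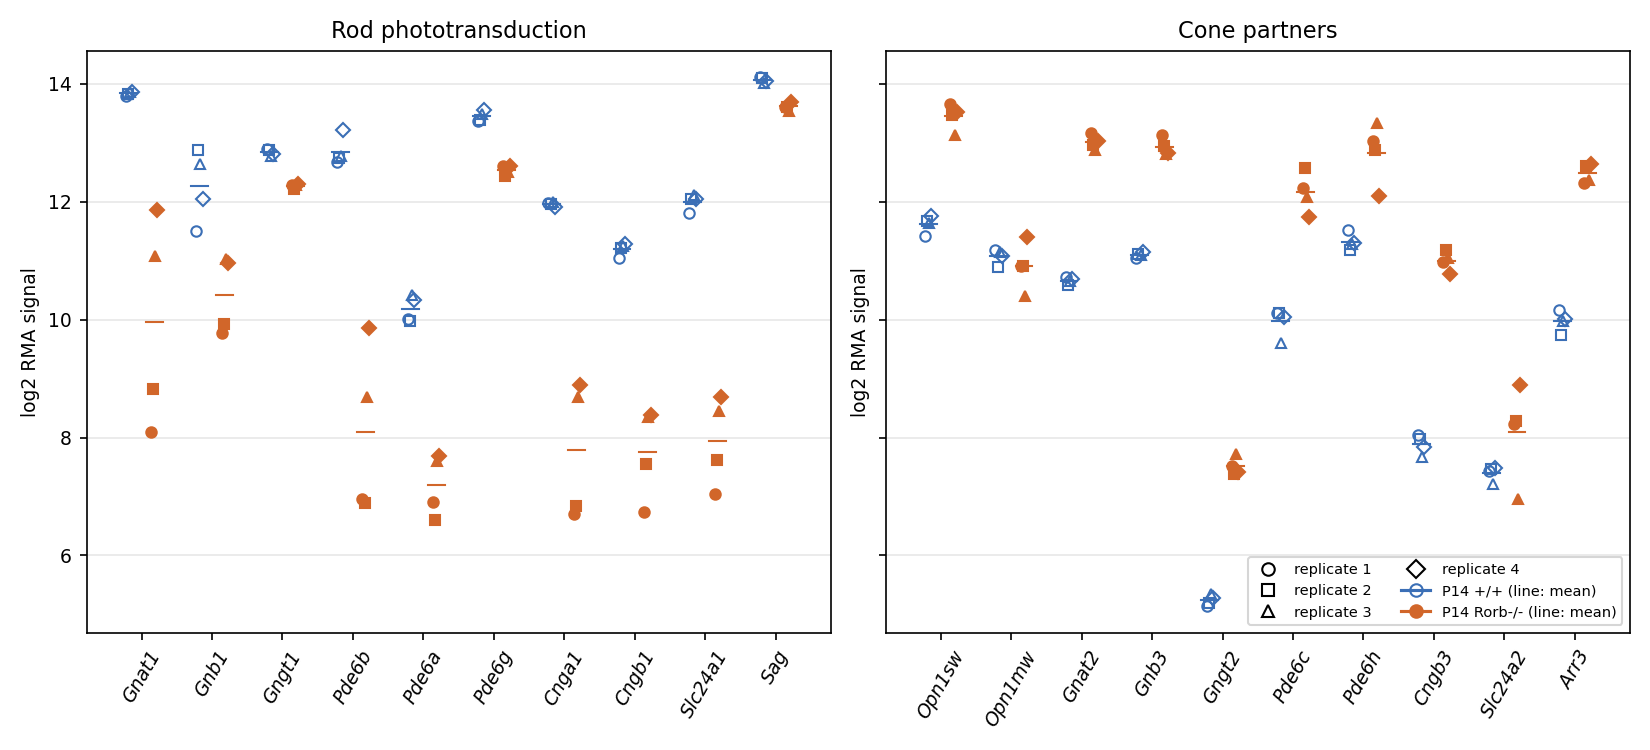
Log2 RMA signal of the measured rod phototransduction genes (left) and of their cone partners (right) in each of the 4 P14 +/+ (open) and 4 P14 Rorb-/- (filled) mice, with lines at the group means. Every Rorb-/- mouse lies below every +/+ mouse in the 10 rod genes, and above in 8 of the 10 cone genes; Opn1mw and Slc24a2 overlap.

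In the longer lists, 13 of 20 rod phototransduction genes fell (19 with the replicate block) and 1 rose (median -0.99), and 12 of 14 cone genes rose and 0 fell (limma, none at an unadjusted p under 0.05 either, and 1 with the replicate number as a block; median 2.01). Besides the partners, Reep6, which shapes rod membranes, fell by 3.82 ± 0.29 and Guca1b, a calcium sensor of guanylate cyclase, fell by 3.31 ± 0.36. The one riser was Guca1a, the other calcium sensor of the cyclase and made in both photoreceptor types: it rose by 1.15 ± 0.28. Genes that both photoreceptors use, Grk1 (a kinase that acts on visual pigments, -0.86 ± 0.44), Rcvrn (recoverin, -0.63 ± 0.27) and Gucy2e (guanylate cyclase, -0.45 ± 0.22), did not pass the test, with adjusted p = 0.156, 0.0782 and 0.138. With the replicate number as a block they passed, at adjusted p = 0.00555, 2.06e-05 and 0.0467. On the cone side Cckbr, a cholecystokinin receptor gene, rose by 2.98 ± 0.24, Ccdc136 rose by 2.44 ± 0.09 and Kcne2, a potassium channel subunit gene, rose by 1.45 ± 0.10.

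Several rod genes split the 4 Rorb-/- mice the same way. Replicates 1 and 2 were the lowest and replicates 3 and 4 the highest for Gnat1, Pde6b, Cnga1, Cngb1 and Slc24a1, in the values given above and in the plot by mouse. Impg1, which encodes a proteoglycan of the matrix around photoreceptors, ran the same way, at 3.92, 4.99, 5.74 and 7.15 against 9.21, 9.13, 9.21 and 9.36 in +/+, and fell by 3.78 ± 0.47. The highest Rorb-/- mouse still lay 1.94 to 3.11 below the lowest +/+ mouse in these 6 genes. The 4 Rorb-/- mice spanned 1.65 (Cngb1) to 3.76 (Gnat1), and the SD of Gnat1 was 1.79 in Rorb-/- and 0.03 in +/+. Gnat1 differed by -3.25 without replicate 1 and by -4.503 without replicate 4, and Pde6b by -5.34 without replicate 4; Impg1 differed by -3.06 with the mean of all probe sets. The cone genes Gnat2, Gngt2 and Cngb3 spanned 0.295 to 0.414 among the same 4 mice. Other cone partners ran wider in them, Slc24a2 from 6.95 to 8.89 and Pde6h from 12.10 to 13.33. Some rod partners ran narrow, Gngt1 from 12.21 to 12.30 and Sag from 13.54 to 13.69.

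Transcription factor genes of photoreceptors split, 8 of 23 falling and 9 rising (against 13.9% and 16% of all genes). Nrl, which commits precursors to the rod fate, lay at 13.32, 13.33, 13.31 and 13.31 in +/+ and at 8.78, 8.84, 10.55 and 10.54 in Rorb-/- and fell by 3.64 ± 0.40. Esrrb, whose product is a nuclear receptor that maintains rods, fell by 4.40 ± 0.40. Samd11 and Samd7, SAM domain genes active in rods, fell by 2.95 ± 0.29 and 1.46 ± 0.37, and Mef2c fell by 1.79 ± 0.33. With the mean of all probe sets Esrrb differed by -2.97 and Samd11 by -2.03. Of the factors that specify photoreceptors as a class, Crx differed by -0.20 ± 0.16 (adjusted p = 0.417, and 0.0198 with the replicate block), Neurod1 by 0.02 ± 0.15 (adjusted p = 0.936), and Otx2 rose by 0.27 ± 0.09. The call of Otx2 was lost without +/+ replicate 1 or 3 or Rorb-/- replicate 1 or 2 (adjusted p = 0.0562 to 0.0868).

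The factor genes that rose include receptors and partners known from cones. Rxrg, a retinoid X receptor gene of cones, lay at 6.29, 6.25, 6.43 and 6.75 in +/+ and 8.996, 8.67, 8.40 and 8.40 in Rorb-/- and rose by 2.19 ± 0.13. Sall3, which acts in short-wave cones, rose by 1.57 ± 0.12, the retinoic acid receptor gene Rarb rose by 1.28 ± 0.14 and Rax, a homeobox gene of progenitors and photoreceptors, rose by 0.75 ± 0.09.

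Promoters are shown for 2 cone genes that rose (Opn1sw, Gnat2) and 4 rod genes that fell (Nrl, Pde6b, Cnga1, Samd11). They are a selection from the photoreceptor genes above with a single entry among the RefSeq promoters on GRCm38.p6. Among those with a single entry and not shown, Slc24a1, Arr3, Pde6h and Opn1mw hold none of the 4 motifs below. Cngb1 and Gngt1, also not shown, hold TAATCC only. Each sequence shown runs 5′ to 3′ on the gene's strand from 250 bases before the start of the gene to 50 after it. Capitals mark matches, on either strand, to 4 motifs: TAGGTCA, the core of the ROR response element; AGGTCA, the nuclear receptor half-site, which lies within it; TAATCC, a site of CRX and OTX2; and TGCTGA, the core of the NRL site.
Opn1sw (chr6:29380464-29380763, minus strand): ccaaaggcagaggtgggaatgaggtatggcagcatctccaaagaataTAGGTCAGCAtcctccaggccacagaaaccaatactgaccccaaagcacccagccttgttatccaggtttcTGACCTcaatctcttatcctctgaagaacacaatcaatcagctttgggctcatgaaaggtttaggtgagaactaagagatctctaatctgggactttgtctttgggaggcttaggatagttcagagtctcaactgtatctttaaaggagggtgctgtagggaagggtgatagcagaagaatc
Gnat2 (chr3:108092816-108093115, plus strand): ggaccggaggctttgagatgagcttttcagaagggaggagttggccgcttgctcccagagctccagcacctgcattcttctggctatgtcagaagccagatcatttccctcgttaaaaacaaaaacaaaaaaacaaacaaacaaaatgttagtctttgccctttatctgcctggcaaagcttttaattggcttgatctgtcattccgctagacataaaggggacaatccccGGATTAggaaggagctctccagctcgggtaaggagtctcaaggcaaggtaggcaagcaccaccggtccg
Nrl (chr14:55524203-55524502, minus strand): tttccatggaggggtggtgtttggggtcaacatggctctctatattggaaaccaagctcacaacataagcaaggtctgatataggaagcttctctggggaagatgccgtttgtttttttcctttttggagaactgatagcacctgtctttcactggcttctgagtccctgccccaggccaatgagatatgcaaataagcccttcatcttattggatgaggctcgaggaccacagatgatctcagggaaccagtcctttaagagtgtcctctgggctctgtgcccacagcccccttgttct
Pde6b (chr5:108388123-108388422, plus strand): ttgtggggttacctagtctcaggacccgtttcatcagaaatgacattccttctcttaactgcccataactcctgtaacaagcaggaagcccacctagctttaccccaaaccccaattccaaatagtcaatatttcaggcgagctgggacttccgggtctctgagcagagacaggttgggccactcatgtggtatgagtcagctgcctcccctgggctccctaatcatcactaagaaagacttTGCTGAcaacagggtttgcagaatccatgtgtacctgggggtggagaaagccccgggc
Cnga1 (chr5:72642703-72643002, minus strand): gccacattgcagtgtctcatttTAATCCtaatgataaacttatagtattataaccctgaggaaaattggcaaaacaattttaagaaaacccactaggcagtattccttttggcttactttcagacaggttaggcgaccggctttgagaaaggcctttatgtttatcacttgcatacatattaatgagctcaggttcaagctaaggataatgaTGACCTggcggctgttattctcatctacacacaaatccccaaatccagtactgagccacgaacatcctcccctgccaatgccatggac
Samd11 (chr4:156255293-156255592, minus strand): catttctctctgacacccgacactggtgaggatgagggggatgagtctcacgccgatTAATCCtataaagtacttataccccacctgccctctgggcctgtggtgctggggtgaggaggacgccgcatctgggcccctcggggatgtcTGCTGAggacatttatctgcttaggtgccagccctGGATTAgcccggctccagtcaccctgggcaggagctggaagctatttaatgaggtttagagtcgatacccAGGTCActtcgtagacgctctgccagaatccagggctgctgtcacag

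In the Opn1sw sequence TAGGTCA stands 203 bases before the start, where it overlaps a TGCTGA on the opposite strand, and a second AGGTCA stands 132 bases before the start on the opposite strand. Gnat2 holds 1 TAATCC, Pde6b 1 TGCTGA and Cnga1 1 TAATCC and 1 AGGTCA. Samd11 holds 2 TAATCC, 1 TGCTGA and 1 AGGTCA, and these letters do not occur in the Nrl window. Over the 11720 measured genes with 1 promoter, TAGGTCA occurred in 1.99% of all, in 1.32% of the 303 that rose at least 2-fold and in 2.56% of the 273 that fell so far. For AGGTCA the shares were 13.7%, 9.24% and 14.3%, for TAATCC 6.21%, 9.9% and 10.6%, and for TGCTGA 17.5%, 17.5% and 18.3%. A match is a description of the letters and not of binding.

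Genes of the outer segment, the stack of discs that holds the visual pigment, mostly followed the rod genes: 12 of 22 fell and 3 rose (median -0.53, against 13.9% and 16% of all genes). Rom1, a tetraspanin of the disc rim, lay at 12.99, 12.62, 12.88 and 12.81 in +/+ and 10.39, 10.43, 10.37 and 11.18 in Rorb-/- and fell by 2.23 ± 0.29. Fscn2, which bundles actin at the base of the discs, fell by 3.04 ± 0.22, Rdh12, a retinol dehydrogenase of photoreceptors, fell by 2.38 ± 0.29, and Rp1, a protein of the axoneme, fell by 2.18 ± 0.35. Elovl2, which elongates the long fatty acids of disc membranes, rose by 2.03 ± 0.28. Prph2, the partner of Rom1 at the disc rim, fell by 4.67 ± 1.29 (adjusted p = 0.00569), but 1 mouse of each group stood apart: 7.32, 12.50, 12.61 and 12.71 in +/+ and 5.39, 4.94, 11.04 and 5.09 in Rorb-/-, so that the groups overlapped. Without these mice in turn the difference was -5.99 (+/+ replicate 1) and -6.15 (Rorb-/- replicate 3).

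Of 29 genes of the connecting cilium and its transport 8 fell and 4 rose (median -0.17, against 13.9% and 16% of all genes). Bbs5, Bbs7 and Bbs9, parts of the BBSome that moves cargo along cilia, fell by 1.36 ± 0.18, 1.13 ± 0.27 and 0.85 ± 0.19, and Fam161a of the cilium fell by 1.21 ± 0.19, while Pcdh15, a cadherin gene, rose by 1.32 ± 0.19. Without probe sets of shared-sequence suffixes Fam161a differed by -0.497. At the ribbon synapse of photoreceptors 10 of 25 fell and 2 rose (median -0.31). Rims1, which organises the release site, lay at 10.38, 10.29, 10.17 and 10.12 in +/+ and 7.46, 8.02, 7.73 and 7.77 in Rorb-/- and fell by 2.50 ± 0.12, and Cabp4, the calcium channel regulator, fell by 1.90 ± 0.28. Ctbp2, whose product RIBEYE builds the ribbon, differed by 0.10 ± 0.09 (adjusted p = 0.418), and the channel gene Cacna1f by -0.23 ± 0.17 (adjusted p = 0.345).

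**Figure D2:**
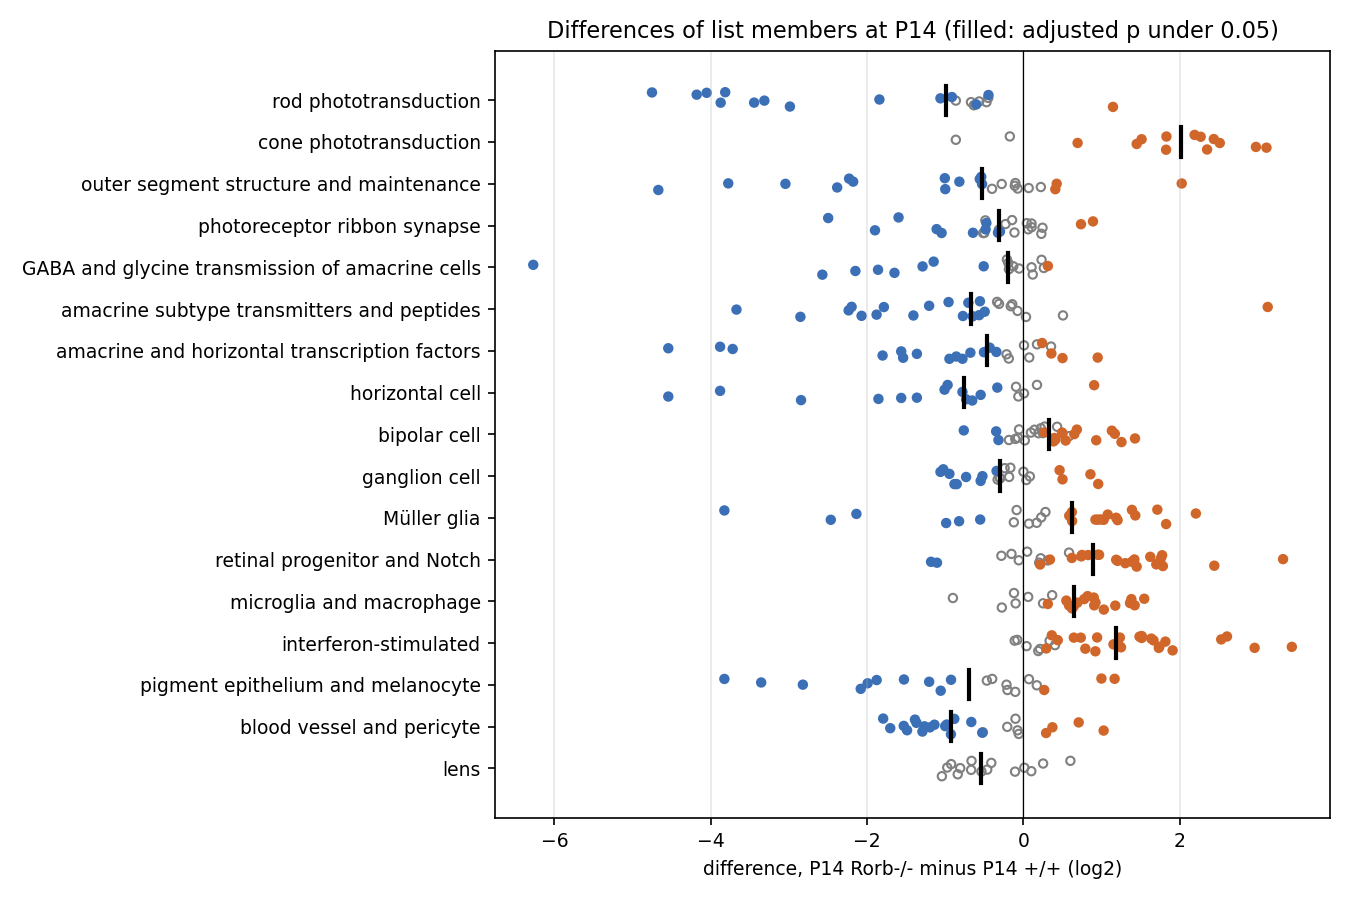
Difference between P14 Rorb-/- and P14 +/+ (log2, horizontal axis) of each measured member of 17 gene lists, filled where adjusted p was under 0.05, with a bar at the list median. Cone, progenitor, interferon and microglia members lie mostly to the right of 0, and rod, amacrine, horizontal and vessel members mostly to the left.

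Among genes of the inhibitory interneurons of the inner retina Gad1 fell most. This gene, whose enzyme makes GABA, lay at 11.34, 11.35, 11.40 and 11.26 in +/+ and at 4.95, 5.75, 4.54 and 5.02 in Rorb-/-. The highest Rorb-/- mouse was 5.51 below the lowest +/+ mouse, and Gad1 fell by 6.27 ± 0.29, 77.2-fold; its 2 probe sets fell by 5.36 and 6.27. Gad2, the other GABA-making enzyme, lay at 7.80, 7.83, 7.91 and 7.92 and 8.06, 8.14, 7.87 and 8.33, overlapping, and differed by 0.23 ± 0.10 (adjusted p = 0.0721, and 0.0187 without Rorb-/- replicate 3). In all, 8 of 18 genes of GABA and glycine transmission fell and 1 rose (median -0.20). Slc32a1, the vesicular transporter of both transmitters, fell by 1.86 ± 0.13. The glycine transporter genes Slc6a5 and Slc6a9 fell by 2.15 ± 0.17 and 1.65 ± 0.12, and Glra3, a glycine receptor gene, fell by 2.57 ± 0.12. With the mean of all probe sets these differed by -0.54 (Slc32a1), -1.11 (Slc6a5) and -1.51 (Glra3).

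Transmitters that mark amacrine subtypes fell in 16 of 24 cases and rose in 1 (median -0.68). Among the 15 left after leaving out the dimmest 40% of genes, 10 fell. The peptide genes Tac2 (-3.67 ± 0.14, to the lower end of the signals), Cartpt (-2.85 ± 0.22), Cck (-2.20 ± 0.21), Vip (-2.07 ± 0.31) and Crh (-1.79 ± 0.28) fell, as did Pvalb, a calcium buffer gene (-1.88 ± 0.21). Of the genes that mark cholinergic starburst cells, the vesicular transporter gene Slc18a3 fell by 2.24 ± 0.15, to levels of 3.80, 3.65, 3.45 and 3.92. The synthesis gene Chat fell by 0.70 ± 0.11. Th, which marks dopaminergic cells, fell by 0.57 ± 0.14. Sst, which encodes somatostatin, went the other way: it lay at 6.08, 5.80, 6.15 and 5.32 in +/+ and at 9.10, 9.26, 8.61 and 8.89 in Rorb-/-, and rose by 3.13 ± 0.22.

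Factor genes of amacrine and horizontal cells fell in 14 of 24 cases and rose in 4 (median -0.47), and in 8 of 14 without the dimmest genes. The 3 AP-2 genes led. Tfap2b lay at 10.83, 10.70, 11.05 and 10.72 in +/+ and at 6.34, 6.43, 6.01 and 6.35 in Rorb-/- and fell by 4.54 ± 0.14; Tfap2a fell by 3.88 ± 0.13 and Tfap2c fell by 3.72 ± 0.13, the last to the lower end of the signals. With the mean of all probe sets Tfap2a differed by -2.91 and Tfap2c by -2.60. Meis2 fell by 1.80 ± 0.15, Barhl2 fell by 1.54 ± 0.18 and Sox2, present in some amacrine cells and in Müller glia, rose by 0.95 ± 0.13. Pax6, which all amacrine and horizontal cells express, lay at 10.61, 10.49, 10.45 and 10.47 and 10.30, 10.50, 10.32 and 10.15, a difference of -0.19 ± 0.07 (adjusted p = 0.0502, and 0.0118 without Rorb-/- replicate 2). Ptf1a, which acts earlier in the precursors, differed by -0.22 ± 0.11 (adjusted p = 0.155).

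In the horizontal cell list 13 of 18 members fell and 1 rose (median -0.76). Calb1, calbindin, lay at 10.79, 10.62, 10.54 and 10.65 in +/+ and at 7.65, 7.89, 7.59 and 8.08 in Rorb-/- and fell by 2.85 ± 0.15, though its 4 probe sets ranged from -2.85 to -0.60. Ndrg1 fell by 1.85 ± 0.11, Lhx1, the factor of horizontal cells, fell by 1.56 ± 0.17, Onecut1 fell by 1.36 ± 0.25 and Gja10, their gap junction gene, fell by 0.97 ± 0.11. Averaged over all probe sets Calb1 differed by -1.99 and Onecut1 by -0.77. Prox1, also made in AII amacrine cells and bipolar cells, differed by 0.17 ± 0.15 (adjusted p = 0.43).

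**Figure D3:**
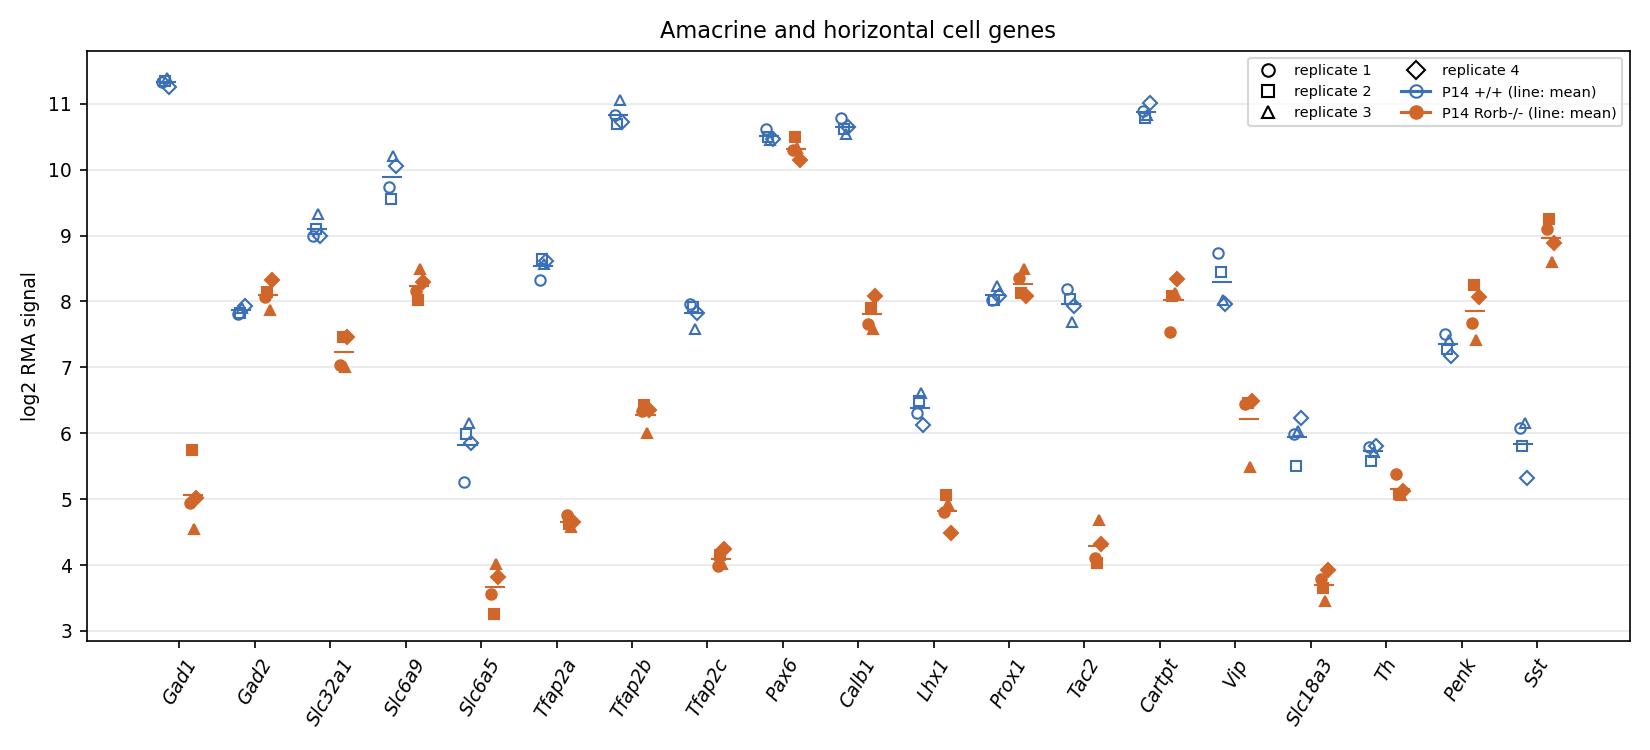
Log2 RMA signal of genes of amacrine and horizontal cells in each of the 4 P14 +/+ (open) and 4 P14 Rorb-/- (filled) mice, with lines at the group means. Gad1 and the 3 AP-2 genes fall by 3.72 to 6.27 with no overlap between the groups, Gad2, Pax6 and Prox1 overlap between the groups, and Sst is higher in all 4 Rorb-/- mice.

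Bipolar cells carry the photoreceptor signal to the inner retina. Of their 30 genes 14 rose and 3 fell (median 0.33). Cabp5, a calcium sensor of bipolar cells, rose by 1.43 ± 0.12, and the factor genes Irx5 and Lhx4 rose by 1.25 ± 0.14 and 1.17 ± 0.11. Prkca and Trpm1, markers of rod bipolar and ON bipolar cells, differed by -0.07 ± 0.11 and -0.10 ± 0.20 (adjusted p = 0.71 and 0.761). Of 22 ganglion cell genes 9 fell and 4 rose (median -0.30, against 13.9% and 16% of all genes), with 5 falling without Rorb-/- replicate 1. Nefh, a neurofilament gene, fell by 1.06 ± 0.19 and Thy1 fell by 1.03 ± 0.22, and the melanopsin gene Opn4 differed by 0.04 ± 0.10 (adjusted p = 0.831). Glutamate receptor and transporter genes fell in 9 of 28 cases and rose in 6 (against 13.9% and 16% of all genes). Grm8 fell by 2.12 ± 0.13, Gria3 fell by 1.90 ± 0.15 and Grm5 rose by 1.21 ± 0.09.

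Müller glia, which span the retina and keep some progenitor genes active, had 15 of 27 genes higher and 6 lower (median 0.62). The risers were led by Id3 (2.21 ± 0.14) and Id1 (1.71 ± 0.17), inhibitors of helix-loop-helix factors, and Apoe (1.83 ± 0.07), which carries lipids. The fallers were led by Rgr (-3.83 ± 0.52), a retinal-binding opsin shared with the pigment epithelium, Spc25 (-2.46 ± 0.41) and Car14 (-2.14 ± 0.26), a carbonic anhydrase gene. Spc25 differed by -1.57 without probe sets of shared-sequence suffixes. The defining genes Glul, Rlbp1 and Kcnj10 differed by -0.09 ± 0.10, 0.07 ± 0.08 and 0.28 ± 0.18 and did not pass the test (adjusted p = 0.592, 0.599 and 0.257; Kcnj10 0.0187 with the replicate block).

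Genes of retinal progenitors and of the Notch pathway, the signal that keeps neighbouring cells undifferentiated, were higher in 22 of 32 cases and lower in 2 (median 0.89). Within the pathway the ligand gene Dll1 rose by 1.76 ± 0.14, the receptor genes Notch2 and Notch1 rose by 1.62 ± 0.13 and 1.20 ± 0.13, and the target genes Hes5, Hes1 and Hey2 rose by 1.78 ± 0.27, 1.39 ± 0.09 and 1.30 ± 0.16. Another ligand gene, Jag1, fell by 1.18 ± 0.32. Averaged over its probe sets Notch2 differed by 0.69. Hes5 lay at 6.44, 6.51, 6.46 and 6.55 in +/+ and 8.56, 8.48, 8.001 and 8.05 in Rorb-/-. Zic5, a zinc finger gene of progenitors, lay at 5.18, 4.41, 4.28 and 3.88 in +/+, near the lower end, and at 7.57, 8.09, 7.66 and 7.71 in Rorb-/- and rose by 3.32 ± 0.21. Sfrp2, a Wnt inhibitor gene, rose by 2.44 ± 0.23 and Sox8 rose by 1.77 ± 0.27. Sox9, Sox2, Lhx2, Notch1 and Hes1 stand in the Müller list too. The cell cycle list had 7 of 25 higher and 5 lower (against 16% and 13.9% of all genes; median 0.13); it had 3 higher without Rorb-/- replicate 2, and 4 without +/+ replicate 1, +/+ replicate 4 or Rorb-/- replicate 3, with the arrays shifted to the same median or with only the P14 groups in the fit. Mki67, which marks dividing cells, differed by 0.04 ± 0.12 (adjusted p = 0.842). Bub1b, a spindle checkpoint gene, rose by 2.15 ± 0.28, though its 3 probe sets ranged from 0.18 to 2.58. Of 30 genes of immature neurons 13 rose and 3 fell (median 0.25), led by Plxna2 (-1.64 ± 0.13), a semaphorin receptor gene, and Tubb2b (1.55 ± 0.22), a tubulin gene.

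Of 36 genes of the nuclear receptor family, to which Rorb belongs, 8 rose and 11 fell, Rorb among them (against 16% and 13.9% of all genes). After Esrrb the largest was Ppara, a fatty acid receptor gene, which fell by 2.26 ± 0.29, followed by Rxrg, given above, and Esr1, an oestrogen receptor gene (-1.41 ± 0.14, and -0.63 with the mean of all probe sets). Nr6a1 rose by 1.29 ± 0.23 and Nr2f1, which patterns the dorsal and ventral retina, rose by 0.99 ± 0.15. Rora, a close relative of Rorb, differed by -0.06 ± 0.09 (adjusted p = 0.676). Of 52 potassium channel genes 23 fell and 5 rose (median -0.21). Kcnj14, an inward rectifier gene, lay at 10.89, 11.001, 11.32 and 11.22 in +/+ and 4.46, 4.94, 4.98 and 6.54 in Rorb-/- and fell by 5.88 ± 0.39, and Kcna1 and Kcnip3 fell by 1.57 ± 0.20 and 1.61 ± 0.14.

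Most immune genes that passed the test were higher. Of 25 microglia and macrophage genes 18 rose and 0 fell (limma, with 2 lower at an unadjusted p under 0.05 and 2 with the replicate block; median 0.64). Lyz2, lysozyme, rose by 1.55 ± 0.22 and the complement genes C1qc and C1qa rose by 1.42 ± 0.16 and 1.36 ± 0.13. The homeostatic markers P2ry12 and Tmem119 differed by -0.12 ± 0.19 and -0.28 ± 0.13 (adjusted p = 0.698 and 0.116, the latter 0.0401 with the replicate block). Antigen presentation genes rose in 8 of 15 cases and fell in 0 (limma, none at an unadjusted p under 0.05 either; median 0.55), led by B2m (1.34 ± 0.27) and the immunoproteasome gene Psmb8 (1.16 ± 0.18); without probe sets of shared-sequence suffixes 8 were measured and 5 rose. The median over the 15 antigen presentation genes, against the +/+ mean, was 0.16, 0.98, 0.24 and 0.91 in Rorb-/- replicates 1 to 4. Of 31 gliosis and injury genes 9 rose and 3 fell (5 with the replicate number as a block), against 16% and 13.9% of all genes. Socs3, an inhibitor of cytokine signals, lay at 5.72, 5.83, 5.61 and 5.77 in +/+ and 10.003, 9.80, 9.23 and 9.03 in Rorb-/- and rose by 3.78 ± 0.24 (2.36 without probe sets of shared-sequence suffixes), while Osmr, a cytokine receptor gene, fell by 1.87 ± 0.22 (-0.73 with the mean of all probe sets) and Gfap, the usual marker of gliosis, differed by 0.51 ± 0.23 (adjusted p = 0.0995, and 0.0021 with the replicate block).

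Interferon-stimulated genes were higher in 25 of 32 cases and lower in 0 (limma, none at an unadjusted p under 0.05 either; median 1.18), but not in every mouse. The median over the 32 genes, against the +/+ mean, was 0.72 in Rorb-/- replicate 1, 1.93 in replicate 2, 0.10 in replicate 3 and 1.54 in replicate 4. Of the 32, 27, 30, 11 and 29 lay above all 4 +/+ mice in these replicates. Usp18, which limits the interferon receptor, lay at 3.95, 3.95, 3.56 and 4.14 in +/+ and at 6.29, 9.04, 3.99 and 8.11 in Rorb-/-, and rose by 2.96 ± 0.61, 3.91 without replicate 3 and 2.23 without replicate 2. Ifit1, which binds foreign RNA, lay at 3.71, 4.03, 4.29 and 4.16 and 5.89, 8.57, 4.14 and 7.71 and rose by 2.53 ± 0.53, with replicate 3 among the +/+ mice again (3.34 without it, and 1.87 without replicate 2). Oasl2, of the same response, lay at 4.98, 5.15, 5.06 and 5.92 and 8.19, 9.93, 7.30 and 9.43 and rose by 3.43 ± 0.38, with no overlap. Rtp4 rose by 2.60 ± 0.50 (3.39 without replicate 3) and Parp14 rose by 1.91 ± 0.27, and with the mean of all probe sets they differed by 1.47 and 1.06. The count of genes that rose was 27 without Rorb-/- replicate 3 and 19 without replicate 2, and 16 of the 19 genes left without the dimmest 40%. Replicates 2 and 4, the highest here, were on different sides of the split seen in the rod genes, and the microglia list had medians of 0.83, 0.63, 0.63 and 0.56 in replicates 1 to 4.

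**Figure D4:**
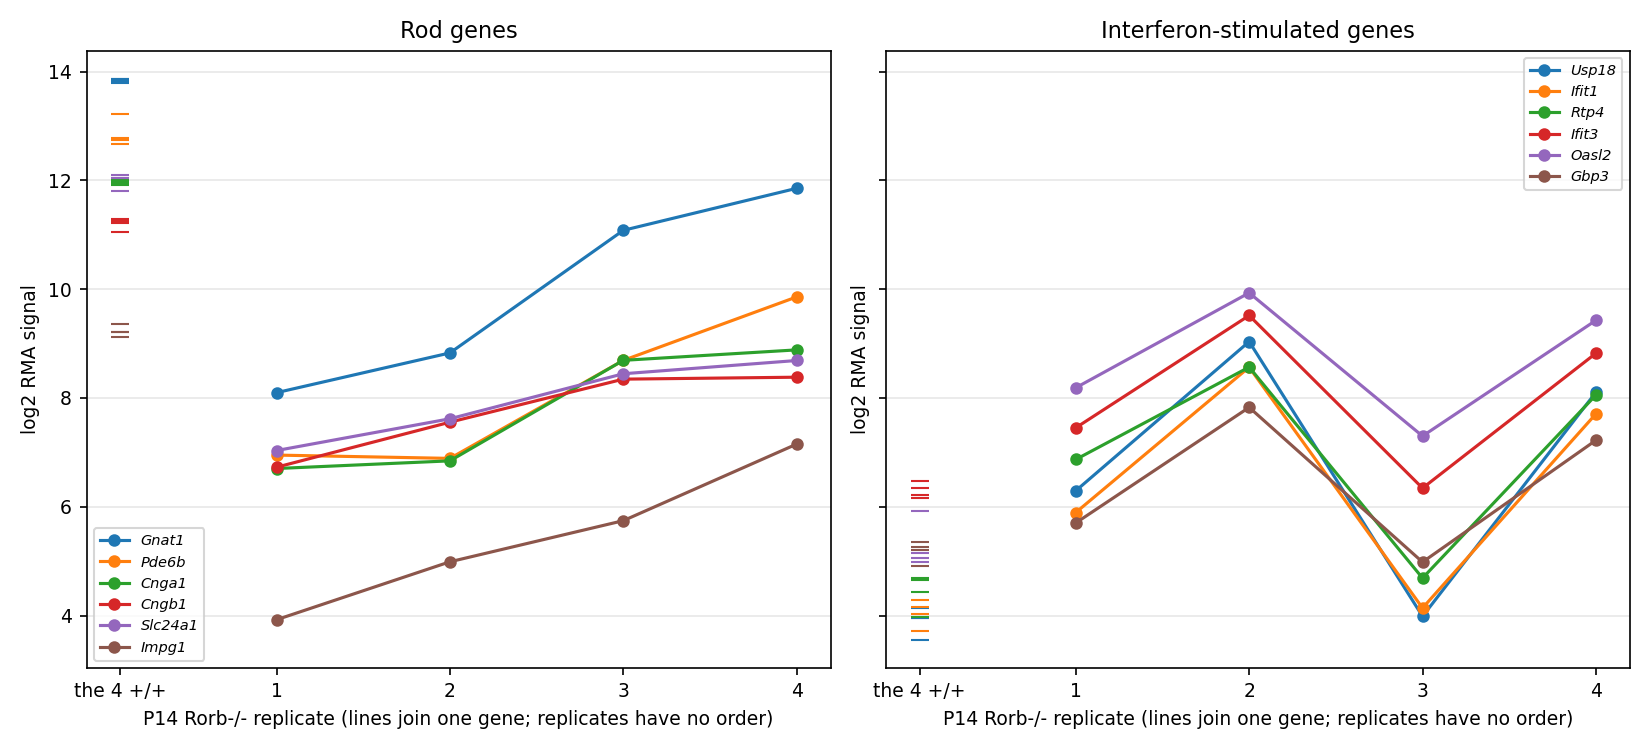
Log2 RMA signal of 6 rod genes (left) and 6 interferon-stimulated genes (right) in each P14 Rorb-/- mouse, with the 4 P14 +/+ mice as dashes at the left of each panel. Rod genes are lowest in replicates 1 and 2, whereas interferon-stimulated genes are highest in replicates 2 and 4 and lowest in replicate 3.

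Markers of pigment epithelium and of vessels also differed between the groups. Of 20 pigment epithelium and melanocyte genes 10 fell and 3 rose (median -0.70). Rpe65, the isomerase that regenerates retinal, lay at 8.08, 8.43, 8.08 and 8.22 in +/+ and 5.01, 4.99, 4.99 and 4.39 in Rorb-/- and fell by 3.35 ± 0.44; Ttr, a retinol carrier gene, fell by 2.82 ± 0.51 and Dct, a melanin enzyme gene, fell by 1.88 ± 0.36. Averaged over this list, the +/+ mice gave 7.76, 8.03, 7.85 and 7.95 and those without Rorb 6.99, 6.95, 7.02 and 6.75. The part of this tissue in the fall of Rgr and other shared genes was not tested. Of 25 vessel and pericyte genes 16 fell and 4 rose (2 without +/+ replicate 2, +/+ replicate 4 or Rorb-/- replicate 3; median -0.93), and 8 of 14 fell without the dimmest genes: Rgs5 of pericytes fell by 1.79 ± 0.14, Cldn5 of endothelial junctions fell by 1.70 ± 0.17 and Pecam1 fell by 1.20 ± 0.15. Lens genes did not pass the test in any of 15 cases in the fit of all arrays (limma, none at an unadjusted p under 0.05 either; 1 rose with the replicate block and 1 with only the P14 groups in the fit; median -0.54), yet their median against the +/+ mean was -0.15, 0.88, -1.53 and -1.41 in Rorb-/- replicates 1 to 4. Of 5 red blood cell genes 2 fell, 1 when any 1 of 6 mice was left out, and 0 rose (limma, none at an unadjusted p under 0.05 either; median -0.18).

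Over all genes 16% were higher and 13.9% lower, beside the counts for metabolism, rhythm, cell death and monoamines. Glycolysis and energy genes fell in 9 of 25 cases and rose in 4 (median -0.19), with 2 rising when any 1 of +/+ replicates 1 and 2 and Rorb-/- replicates 1, 3 and 4 was left out, led by Pfkfb2 (-1.29 ± 0.21), which sets the rate of glycolysis, and Slc16a8 (-1.21 ± 0.21), a lactate transporter gene of the pigment epithelium. Circadian clock genes fell in 8 of 18 cases and rose in 0 (limma, none at an unadjusted p under 0.05 either, and 1 with the replicate block; median -0.23), led by Ciart (-0.88 ± 0.21) and Dbp (-0.65 ± 0.17); only 4 fell without +/+ replicate 3, +/+ replicate 4 or Rorb-/- replicate 2. Apoptosis genes rose in 7 of 22 cases and fell in 1, 8 in all and near the share of 29.9% over all genes (median 0.16), led by Hrk (0.87 ± 0.11). In the pathway of dopamine, melatonin and serotonin 5 of 19 fell and 3 rose. Drd4, the dopamine receptor gene of photoreceptors, fell by 2.03 ± 0.36, and Tph1, which makes serotonin, rose by 2.67 ± 0.23, from about 4 in +/+.

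The largest single changes included genes outside these lists. Nt5e, an ecto-nucleotidase that makes adenosine and a surface marker of rod precursors, lay at 10.39, 10.65, 10.56 and 10.59 in +/+ and at 4.61, 4.17, 3.53 and 4.50 in Rorb-/-, where it had reached the lower end of the signals. It fell by 6.34 ± 0.16, though its 3 probe sets ranged from -6.34 to -0.07. Plpp2, a lipid phosphatase gene, fell by 4.47 ± 0.19 at the probe set used and differed by -0.004 at the other. Sbspon fell by 4.32 ± 0.42, Aqp1, a water channel gene, fell by 4.22 ± 0.39, C1ql2, a synaptic secreted protein gene, fell by 4.14 ± 0.15, Glb1l2 fell by 3.96 ± 0.29 and Cdr2 fell by 3.92 ± 0.29. To these come Gad1, Kcnj14, Tfap2a, Tfap2b, Tfap2c, Rgr, Impg1 and the rod genes Pde6b, Esrrb, Cnga1, Slc24a1, Gnat1 and Reep6. Together they were the 20 largest falls without overlap among genes that the naming rule below admits.

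Among the rises, Clca1 lay at 5.50, 5.63, 5.79 and 5.31 in +/+ and at 10.12, 9.58, 9.81 and 10.19 in Rorb-/-. It rose by 4.37 ± 0.22, the largest of the rises named here (0.26 at its other probe set). Myocd, a coactivator gene of muscle, rose by 3.76 ± 0.26, Otop3, a proton channel gene, rose by 3.70 ± 0.31 and Chrnb4, a nicotinic receptor subunit gene, rose by 3.65 ± 0.19. Averaged over all probe sets Myocd differed by 2.76 and Chrnb4 by 2.898. Slco1a5, an organic anion transporter gene, rose by 3.45 ± 0.14 from the lower end of the signals, and by 0.26 at its other probe set. Cxcr4, a chemokine receptor gene, rose by 3.39 ± 0.16, Pik3ap1 rose by 3.11 ± 0.18 (0.46 at its other probe set), Cited1 rose by 3.10 ± 0.15 and Eya1, an eye development gene, rose by 3.08 ± 0.16 (2.06 with the mean of all probe sets). Gpc3, a glypican gene, rose by 2.96 ± 0.18, Gpat3 rose by 2.94 ± 0.17, Riiad1 rose by 2.88 ± 0.28, Mapk4 rose by 2.84 ± 0.20 and Pdyn, the dynorphin precursor gene, rose by 2.75 ± 0.29. With Socs3, Oasl2, Zic5, Sst, Cngb3 and Cckbr these were the 20 largest rises without overlap among genes that the naming rule below admits.

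The neighbours of Rorb on chromosome 19 are given by their order along it. Of the 25 measured genes on each side, 50 in all, 13 rose and 13 fell, 52% against 29.9% of all genes, and 7 changed at least 2-fold. The largest were Mamdc2 (1.87 ± 0.14), Trpm3, a cation channel gene (1.70 ± 0.14), Klf9 (-1.54 ± 0.24), Anxa1 (-1.48 ± 0.56, adjusted p = 0.0454) and Dock8 (-1.48 ± 0.34). The call of Anxa1 was lost without any 1 of 7 mice (adjusted p = 0.0508 to 0.141) and kept without Rorb-/- replicate 2. It was also lost with array weights (0.0565) and with a sex-linked covariate (0.0505). With only the P14 groups in the limma fit it was kept (0.00149), as it was with the replicate block (1.54e-05). With the mean of all probe sets Anxa1 differed by -0.805 and Dock8 by -0.48, and without those of shared-sequence suffixes Klf9 differed by -0.92. The 6 probe sets of Trpm3 ranged from -1.39 to 1.74. The nearest measured gene on one side was Trpm6 (-0.05 ± 0.10, adjusted p = 0.736) and on the other Anxa1, followed by Aldh1a1, a retinoic acid synthesis gene of the dorsal retina (0.66 ± 0.16). The labels give no strain, so a part of a flanking chromosome segment in these values was not tested.

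The same contrast at P28 used other mice. There 620 genes (3.41%) were at least 2-fold higher and 392 (2.15%) lower without Rorb, 5.56% in all. Of the 485 genes higher at P14, 387 (79.8%) were higher at P28 too, which is 62.4% of the P28 list, and of the 467 lower at P14, 289 (61.9%) were lower, 73.7% of the P28 list. In 3 genes the direction was opposite. The test of the difference between ages called 126 genes at 2-fold (0.693%), 97 of them (0.533%) with a more positive difference at P28 and 29 (0.159%) with a more negative one; with any fold it called 2.72%. The pigment epithelium list had 10 of 20 members lower and 3 higher at P14 (median -0.70), and 1 lower and 8 higher at P28 (median 0.35). Of its genes, Ttr went from -2.82 at P14 to 0.95 at P28, a difference of 3.78 ± 0.72, Rgr from -3.83 to -0.27, Dct from -1.88 to 1.66 and Rpe65 from -3.35 to -0.32. In the other direction Fscn2 went from -3.04 to -5.02, a difference of -1.98 ± 0.31, and Mef2c from -1.79 to -3.56. Opn1mw, which did not pass at P14, was higher by 1.32 ± 0.25 at P28, and its difference between ages was 1.49 ± 0.36 (adjusted p = 0.0194). In the rod phototransduction list 0 of 20 genes passed this test (limma; 2 at an unadjusted p under 0.05).

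The Rorb contrast at P14 was also made between 8 mice that all carried CrxpNrl and are not among the 8 above. There 401 genes (2.2%) were at least 2-fold higher and 432 (2.37%) lower, 4.58% in all. Of the 485 genes higher without the transgene 289 (59.6%) were higher with it, 72.1% of that list, and of the 467 lower ones 339 (72.6%) were lower with it, 78.5% of that list; 1 gene was opposite. The test of the difference called 94 genes at 2-fold (0.517%), 26 of them (0.143%) more positive with the transgene and 68 (0.374%) more negative; with any fold it called 1.47%.

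Some rod genes were among those that differed. Over the rod phototransduction list 13 of 20 genes fell without the transgene and 13 with it (medians -0.99 and -1.11). With the transgene Pde6b differed by -1.76 in place of -4.75, a difference of 2.99 ± 0.76 (adjusted p = 0.0372). Cnga1 went from -4.18 to -1.32, Slc24a1 from -4.05 to -1.53, Cngb1 from -3.45 to -1.15, Reep6 from -3.82 to -2.08 and Samd11 from -2.95 to -0.55. The test of the difference called 6 of 20 rod phototransduction genes (limma, 8 at an unadjusted p under 0.05). For Gnat1 it gave 2.66 ± 0.71 (adjusted p = 0.0574) and for Guca1b 0.32 ± 0.51 (adjusted p = 0.919). Genes with a positive Rorb difference without the transgene and a smaller or negative one with it included Slco1a5 (3.45 to 0.14), Mapk4 (2.84 to 0.00), Ccdc136 (2.44 to -0.09), Socs3 (3.78 to 1.17) and Guca1a (1.15 to -1.002). Each of these differences is taken against the +/+ mice with the same transgene status.

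Of the cone list 2 of 14 genes passed the test of the difference, Ccdc136 and Gnb3 (limma, 8 at an unadjusted p under 0.05). The list median was 2.01 without the transgene and 1.39 with it. Arr3 (2.51 without and 4.58 with the transgene) did not (adjusted p = 0.107). Nor did Gnat2 (2.35 and 1.34, adjusted p = 0.0598) or Cngb3 (3.11 and 3.10, adjusted p = 0.994). In the amacrine lists and the shared factor list, 0 of 18 genes of GABA and glycine transmission, 0 of 24 transmitters and peptides and 0 of 24 factor genes passed it (limma; 0, 4 and 3 at an unadjusted p under 0.05). In the horizontal cell list 1 of 18 passed it, Ndrg1 (3 at an unadjusted p under 0.05). Gad1 was lower by 6.27 without the transgene and differed by -5.96 with it, Tfap2b by -4.50 and Tac2 by -4.19.

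**Figure D5:**
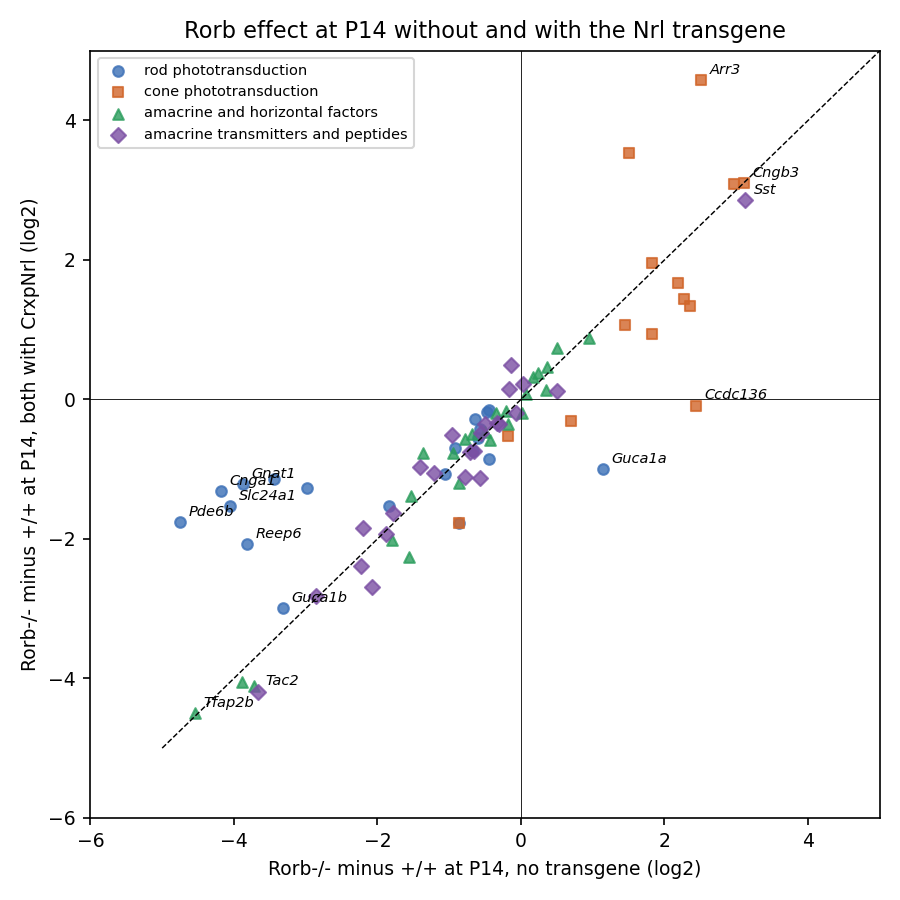
Difference between Rorb-/- and +/+ at P14 (log2) without the transgene (horizontal axis) and between mice that all carried CrxpNrl (vertical axis), 1 point per gene of 4 lists; the dashed line marks equal differences. The rod genes Pde6b, Cnga1 and Slc24a1 lie above the line, and Tfap2b lies near it.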

How the data were processed

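Messenger RNA of the 31 samples was measured on Affymetrix arrays. The authors deposited log2 signals; RMA is the tool named in the submitters' processing notes, with no version. They were used as deposited, through the platform annotation: 34945 probe sets with 1 gene symbol and no control function, and for each gene the one with the highest mean over all arrays, gave 18193 genes. A single limma fit took in every array, with a mean for each group and a prior variance that follows the signal, and Benjamini-Hochberg adjustment over all genes. The fit was tested on simulated data. R 4.3.3, limma 3.58.1, pandas 2.3.3 and matplotlib 3.10.9 were used. Promoters are RefSeq entries of 300 bases on GRCm38.p6.

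Samples were grouped by their labels. Equal replicate numbers in the 2 P14 groups deviated together (correlations 0.167, 0.128, 0.294 and 0.112 for numbers 1 to 4, each above 0.1), while unequal numbers gave -0.275 to 0.186, and numbers 2 and 4 of +/+ correlated best with numbers 1 and 3 of Rorb-/- (0.171 and 0.186). The labels do not say what a number stands for. The fit has no block, and the replicate block is an alternative. The other alternatives were 2 scalings of the arrays, other choices of probe set, a filter on dim genes, no fold requirement, no trend, array weights, a sex-linked covariate, a fit of the 2 P14 groups alone, and each of their 8 mice left out.

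The comparison, its gene lists and the named genes were chosen with earlier results of these data known, so the counts for a list are descriptions. Genes were named by a rule: Rorb and Nrl, the rod and cone partners, the 20 largest rises and falls without overlap, up to 8 members per list with the largest called differences, members that did not pass but define a list, the most variable genes in Rorb-/-, and the largest differences between contrasts. The neighbours of Rorb, and Chat, Guca1a, Hey2, Jag1, Lhx2, Notch1, Otx2, Pecam1, Rax and Sox9, fall outside it and were chosen after their values were seen. The rule left out sex-linked genes and names of expressed sequences. It also left out symbols ending in Rik or starting with LOC or with Gm and a digit.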

Additional observations from a re-analysis of the deposited data

Results flagged for a closer look

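The Rorb difference at P14 was tested against that at P28 and against that in mice with the transgene. Of the genes named here, 25 differed between the ages and 24 with the transgene at adjusted p under 0.05 (limma). Some genes were named for the size of these differences and others for their size at P14, and the P14 arrays enter both tests, so these counts are a description.

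The value after each gene is the P28 difference minus the P14 difference. It was positive for Ttr (3.78), Rgr (3.55), Dct (3.54), Rpe65 (3.03), Osmr (2.08), Plpp2 (1.70), Crh (1.52), Car14 (1.51), Opn1mw (1.49), Cck (1.43), Tph1 (1.41), Lhx1 (1.26), Slc16a8 (1.19), Cldn5 (1.12), Calb1 (0.96), Slco1a5 (0.80) and Gad2 (0.50). It was negative for Fscn2 (-1.98), Mef2c (-1.77), Chrnb4 (-1.36), Lyz2 (-1.28), Cited1 (-0.78), Hrk (-0.76), Prkca (-0.71) and Ccdc136 (-0.47). The 4 largest positive ones belong to the pigment epithelium list, which had 10 of 20 members lower and 3 higher at P14 and 1 lower and 8 higher at P28; the part of that tissue was not tested.

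With the transgene the difference was more positive for Pde6b (2.99), Cnga1 (2.86), Slc24a1 (2.52), Samd11 (2.40), Cngb1 (2.30), Reep6 (1.74), Cdr2 (1.61) and Ndrg1 (1.42). It was more negative for Slco1a5 (-3.32), Mapk4 (-2.84), Socs3 (-2.61), Ccdc136 (-2.52), Guca1a (-2.15), Chrnb4 (-2.05), Clca1 (-1.92), Eya1 (-1.83), Cabp5 (-1.66), Pcdh15 (-1.50), Cited1 (-1.38), Sall3 (-1.19), Gpat3 (-1.12), Gnb3 (-0.89), Rxrg (-0.76) and Rax (-0.55).

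Some groups of 4 held a mouse far from the other 3, with a gap to its nearest neighbour of more than 0.829 of the group's range. This was so in 19 of 438 groups examined, where chance gives about 1 in 20. In P14 Rorb-/- these were B2m (replicate 3, 8.66 against 9.96 to 10.19), Car14 (replicate 4, 8.10 against 7.64 to 7.71), Grm8 (replicate 1, 5.00 against 5.48 to 5.53), Klf9 (replicate 2, 11.64 against 10.36 to 10.47), Prph2 (replicate 3, 11.04 against 4.94 to 5.39), Rom1 (replicate 4, 11.18 against 10.37 to 10.43), Rpe65 (replicate 4, 4.39 against 4.99 to 5.01) and Vip (replicate 3, 5.48 against 6.44 to 6.48). In P14 +/+ they were Cabp4 (replicate 4, 10.11 against 9.90 to 9.91), Cldn5 (replicate 2, 9.22 against 8.88 to 8.88), Pde6c (replicate 3, 9.60 against 10.05 to 10.11), Plpp2 (replicate 2, 11.14 against 10.93 to 10.94), Prph2 (replicate 1, 7.32 against 12.50 to 12.71) and Rarb (replicate 1, 6.75 against 6.05 to 6.11). Prph2 had the widest gaps, 1 mouse in each group lying between the remaining mice of the 2 groups.

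Among list means the mice apart were, in P14 +/+, photoreceptor cilium and transport (replicate 4, 8.63 against 8.61 to 8.61), ganglion cell (replicate 2, 8.44 against 8.37 to 8.37), cell cycle (replicate 2, 6.38 against 6.28 to 6.30) and apoptosis (replicate 2, 6.85 against 6.71 to 6.73), and in P14 Rorb-/- cell cycle (replicate 2, 6.47 against 6.37 to 6.38). Replicate 2 of each group was thus the highest for the cell cycle list, by about 0.1.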

How the results depend on the processing

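The count of genes changed at least 2-fold was 952, and lay between 922 and 1001 when each of the 8 mice was left out in turn (459 to 510 higher and 455 to 495 lower). With the replicate number as a block it was 956, of which 950 were among the 952; over all alternatives tried for it the shared number was never under 736, the value without the dimmest 40% of genes. The difference between ages called 126 genes, 102 to 160 with a mouse left out and 145 with the block, and that with the transgene 94, 88 to 119 and 119. Without the fold requirement the counts were 5445 in all, 2908 higher and 2537 lower, and 495 and 268 for the differences between ages and with the transgene; without the dimmest 40% of genes the count for ages was 70, over fewer genes tested. Genes that did not pass and whose direction turned were Glul (0.0125 without Rorb-/- replicate 3; -0.14 to 0.0125 with a mouse left out), Mki67 (-0.023 without +/+ replicate 4; -0.023 to 0.096), Neurod1 (-0.0087 with array weights; -0.057 to 0.126), Opn4 (-0.0071 without Rorb-/- replicate 2; -0.0071 to 0.081) and Trpm1 (0.061 with the mean of all probe sets). Of 163 named genes called at P14, 158 kept the call under each alternative in which they were present. The filter on dim genes and that on probe sets of shared-sequence suffixes left some of them out, untested there. The called genes that lost the call are given with their values in the report, and the cause was not tested. Among genes that did not pass, calls were also gained by Crx, Gfap and Rcvrn with only the P14 groups in the fit (adjusted p = 0.0393, 0.00292 and 1.58e-05), by Gad2 and Rcvrn with array weights (0.049 and 0.0138), by Gfap with the mean of all probe sets (0.033), and by Pax6 with either scaling of the arrays (0.0468 and 0.0446) or without the dimmest genes (0.0372). For the P14 differences of the named genes the replicate block changed no call besides those given with it in the report. Among other counts in the lists it moved the genes lower from 10 to 14 at the ribbon synapse, from 8 to 12 in the cilium and from 9 to 12 in the ganglion cell list, and the bipolar genes higher from 14 to 17. Genes near the lower end of the signals, or near 14, are limited by the range of the array.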
